A study of Homo sapiens with 4 samples.

Results

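The regions described here are H3K9la regions of the sg3 list that lie where the ends of neighbouring genes meet. They were chosen by the presence, width and summit of sg3 records, as records narrower than 5000 bases on chromosomes 1 to 22 and X whose summit lies within 1 kb of an end of 2 or more RefSeq protein-coding genes. The rule found 1678 of the 56875 regions in the list, and 54402 regions met the conditions on width and chromosome. Of the 1678 regions, 1600 lay near the ends of 2 genes, 76 near 3 and 2 near 4. They touched 2674 genes in 1362 pairs or groups.

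H3K9la is histone H3 lactylated on lysine 9, and it was mapped by ChIP-seq in KYSE30, an established line of oesophageal squamous cell carcinoma, in arms named sg3 and V2. Neither the labels nor the series text used here says what these names stand for, and no genotype or treatment is named for either arm. The labels list 4 samples, a ChIP library with the anti-H3K9la antibody and an input library for each arm, and 1 peak list per arm was analysed, so no difference between the arms has a replicate check. The V2 list is filed under the sample labelled as V2 input, and the labels do not say whether it was called on that library or with it as control. It is called the V2 list throughout.

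Neighbouring genes can start back to back on opposite strands, a divergent pair that shares one stretch of promoter. Such promoters are typically rich in CpG, lack a TATA box and serve many housekeeping genes, for example those of DNA repair and mitochondria. Genes can also meet tail to tail or in tandem, where the 3' end of one gene lies beside the start of the next. Histone marks of active promoters usually flank the nucleosome-poor start on one or on both sides, so at a divergent pair they fall inside the first part of the genes.

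The stretches between the starts of 7 divergent pairs are shown as examples. Each is the plus strand of GRCh38.p14 from 5′ to 3′, from RefSeq, and covers the bases between the annotated starts. Capitals mark exact matches on either strand to the motifs searched, which are listed with their frequencies further on. The first 3 had the highest -log10 q among regions with a V2 record whose genes do not overlap, whose starts agree between the gene table and the promoter table, and whose gap is at most 250 bases. The next 3 are the same for regions without a V2 record, and the last is the promoter of SIRT3, the sirtuin gene named in the series title.

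STX10 and IER2, chr19:13150376-13150410: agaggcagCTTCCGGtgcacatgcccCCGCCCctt
TSPYL4 and DSE, chr6:116254076-116254170: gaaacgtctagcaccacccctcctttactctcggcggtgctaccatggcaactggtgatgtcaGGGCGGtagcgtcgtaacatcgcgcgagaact
FAU and MRPL49, chr11:65122135-65122182: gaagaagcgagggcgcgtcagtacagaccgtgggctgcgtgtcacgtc
ZNF490 and ZNF791, chr19:12610814-12610919: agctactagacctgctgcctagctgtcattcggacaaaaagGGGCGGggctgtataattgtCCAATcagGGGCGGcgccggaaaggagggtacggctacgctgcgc
RECQL and GOLT1B, chr12:21501636-21501788: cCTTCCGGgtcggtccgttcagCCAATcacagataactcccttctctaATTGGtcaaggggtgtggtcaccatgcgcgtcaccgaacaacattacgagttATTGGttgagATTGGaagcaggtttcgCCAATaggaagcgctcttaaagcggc
RSRP1 and TMEM50A, chr1:25338255-25338333: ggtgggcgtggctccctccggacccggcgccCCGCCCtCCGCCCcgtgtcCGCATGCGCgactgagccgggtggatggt
SIRT3 and PSMD13, chr11:236932-236975: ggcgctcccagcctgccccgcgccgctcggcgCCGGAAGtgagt

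These gaps are short, from 35 bases between STX10 and IER2 to 153 bases between RECQL and GOLT1B. The H3K9la summit lay outside each of them, inside one of the genes. At STX10 and IER2 it lay 410 bases inside IER2, an immediate-early gene. At TSPYL4 and DSE it lay 280 bases inside TSPYL4, and at FAU and MRPL49, a ribosomal fusion protein gene and a mitochondrial ribosomal protein gene, 299 bases inside FAU. At ZNF490 and ZNF791 it lay 279 bases inside ZNF791, at RECQL and GOLT1B 280 bases inside GOLT1B, and at RSRP1 and TMEM50A 302 bases inside TMEM50A. At SIRT3 and PSMD13 it lay 259 bases inside PSMD13, a proteasome subunit gene.

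The sg3 values of the 1678 regions describe them and test nothing, since the rule used the sg3 list. Fold enrichment is the authors' ratio at the summit, as the peak caller reports it, and -log10 q is the caller's significance, so that a larger value marks a surer peak. Their median fold enrichment was 5.25 (interquartile range 4.00 to 6.96, highest 24.3), their median -log10 q was 20.7 (12 to 34.1) and their median width was 600 bases (456 to 903). Regions at 1 gene end had a median fold enrichment of 5.08 and a median -log10 q of 20.3, while regions at no gene end had 4.85 and 11.7. Their median widths were 658 bases (477 to 1021) at 1 gene end and 603 bases (443 to 1000) at no gene end.

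Several regions lay close to the limits of the rule. The region just inside the 1 kb limit, at PDZD7 and SFXN3, had its second gene end 1000 bases from the summit, with a fold enrichment of 12.4 and a V2 record. The region just outside, at CTDNEP1 and ELP5, had it 1 base beyond that limit, with a fold enrichment of 5.15 and no overlapping V2 record. The widest region kept, at the 3' ends of DRC1 and OTOF, measured 4535 bases (fold enrichment 10.7), and the narrowest left out by width, at NEK8 and TRAF4, measured 5128 bases (9.02). Only 5 records at 2 or more gene ends were left out by width.

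More of the regions where gene ends meet lacked a V2 record than of regions at a single gene end. Of the 1678 regions, 906 had no overlapping V2 record, which is 54.0% (95% CI 51.6 to 56.4%), and 772 had one. The background over all 54402 sg3 regions of the same width and chromosomes was 48.2%. At 1 gene end the share was 48.2% (47.1 to 49.3%, n = 8262), a difference of 5.78 percentage points (Newcombe 95% interval 3.16 to 8.39), and at no gene end 48.0% (47.5 to 48.4%, n = 44462). All intervals on shares are exact Clopper-Pearson intervals. They cover counting error only, and they treat regions as independent although 315 pairs or groups held more than 1 region.

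The shares were also compared at equal -log10 q, in 5 ranges. Among sg3 regions with a -log10 q from 20 to 40, 39.8% (95% CI 35.7 to 44.2%) of those where gene ends meet had no V2 record. At 1 gene end the share was 33.0% (31.2 to 34.9%), and at no gene end 17.3% (16.5 to 18.2%). From 10 to 20 the shares were 76.9%, 67.5% and 47.5%. At 40 and over, 19 of 321 regions where gene ends meet had no V2 record, 5.92% (3.6 to 9.09%), beside 5.37% (4.33 to 6.56%) at 1 gene end and 1.76% (1.39 to 2.19%) elsewhere. At 1 start alone, with 3' ends left out, the share from 10 to 20 was 69.6% (67.4 to 71.7%), and for start-to-start regions 78.8% (73.9 to 83.2%). From 20 to 40 the start-to-start share was 39.8% (34.5 to 45.2%) and that at 1 start 33.7% (31.6 to 35.8%), a difference of 6.07 points (Newcombe 95% interval 0.556 to 11.8). Between 2 or more gene ends and 1 gene end, the difference was 9.38 points (5.17 to 13.3) from 10 to 20 and 6.81 points (2.33 to 11.4) from 20 to 40. Its interval included 0 in the other ranges, with 6.77 points (-3.34 to 11.8) from 2 to 5, 4.21 points (-0.567 to 8.01) from 5 to 10 and 0.551 points (-1.86 to 3.84) at 40 and over.

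**Figure D1:**
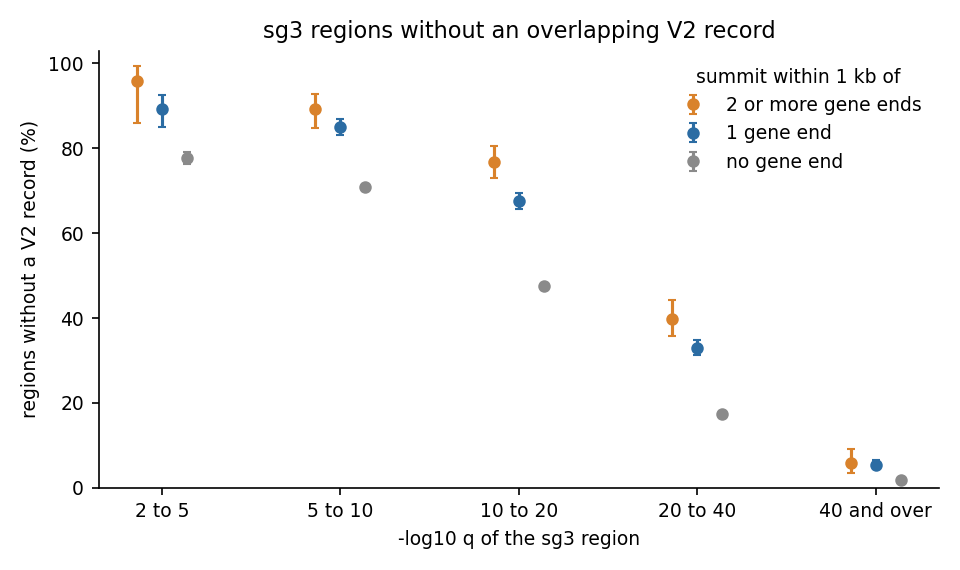
Share of sg3 regions without an overlapping V2 record (vertical axis, %) by the -log10 q of the sg3 region (horizontal axis), for regions with 2 or more, 1 or no gene end within 1 kb of the summit. Points are shares and bars exact 95% intervals; from 20 to 40 the shares are 39.8%, 33.0% and 17.3%.

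Width moved with these shares. Under 500 bases, 83.8% (95% CI 80.5 to 86.8%) of regions where gene ends meet and 83.9% (82.4 to 85.4%) of those at 1 gene end had no V2 record. From 500 to 1000 bases the shares were 48.9% (45.3 to 52.5%) and 44.6% (43.0 to 46.2%), and from 1000 to 2000 bases 21.3% (16.7 to 26.5%) and 18.5% (16.6 to 20.5%). Of the 58 widest, from 2000 to 5000 bases, 0 lacked a V2 record, which allows a share of up to 6.16% by the exact interval. The difference, 2 or more gene ends minus 1, was 4.32 points (Newcombe 95% interval 0.461 to 8.18) from 500 to 1000 bases. Its interval included 0 in the other width classes, with -0.105 points (-3.69 to 3.11) under 500 bases, 2.82 points (-1.92 to 8.20) from 1000 to 2000 and -2.81 points (-4.59 to 3.49) from 2000 to 5000.

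With the lists exchanged, V2 regions where gene ends meet were nearly all matched. By the same rule the V2 list held 854 such regions, and 9 of them had no sg3 record, 1.05% (95% CI 0.483 to 1.99%). The background over all 39104 V2 regions of that width was 13.8%, and at 1 gene end the share was 3.46% (2.97 to 4.01%). The 5 strongest of the 9 lay at SLC5A3 and MRPS6 (V2 fold enrichment 4.54, -log10 q 23.2), at TIMM13 and LMNB2 (4.47 and 15.4), at RPS6KA5 and DGLUCY (3.19 and 12.3), at C11orf52 and DIXDC1 (5.29 and 10.2) and at GDAP2 and WDR3 (3.56 and 9.12). At SLC5A3 with MRPS6 and at C11orf52 with DIXDC1 an sg3 record lay within 5 kb.

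The 10 strongest regions with a V2 record lay at genes of several kinds. The strongest of all (fold enrichment 15.2, -log10 q 118) ran from 72080890 to 72081979 on chromosome 11, at the starts of NUMA1, a spindle pole protein gene, and of LRRC51 and LRTOMT. The V2 list had a region from 72080939 to 72081770 there, with a fold enrichment of 11.5 in that list. The region of STX10, a SNARE protein gene, and IER2 followed with an sg3 value of 15.2 and a V2 value of 11. At TSPYL4 and DSE, a dermatan sulfate epimerase gene, the values were 16.9 and 11.4, and at NUP88, a nuclear pore gene, with RPAIN they were 17.8 and 9.80. These values rank regions within each list and are not comparable between the lists.

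Another of these regions lay at APH1A, a gamma-secretase subunit gene, with C1orf54 and a gene model named LOC124904414 (sg3 fold enrichment 13.0). It was followed by SLC20A2, a phosphate transporter gene, with SMIM19 (10.4). DAB1 with OMA1, a mitochondrial protease gene, had 9.50, DDX5, an RNA helicase gene, with CEP95 had 10.9, and CDKL3 with UBE2B, a ubiquitin-conjugating enzyme gene, had 11.3. The annotated starts of DAB1 and OMA1 both lay 269 bases from the summit. All 10 had a -log10 q of at least 98.7 in the sg3 list and V2 records with a -log10 q from 39.8 to 77.2.

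**Figure D2:**
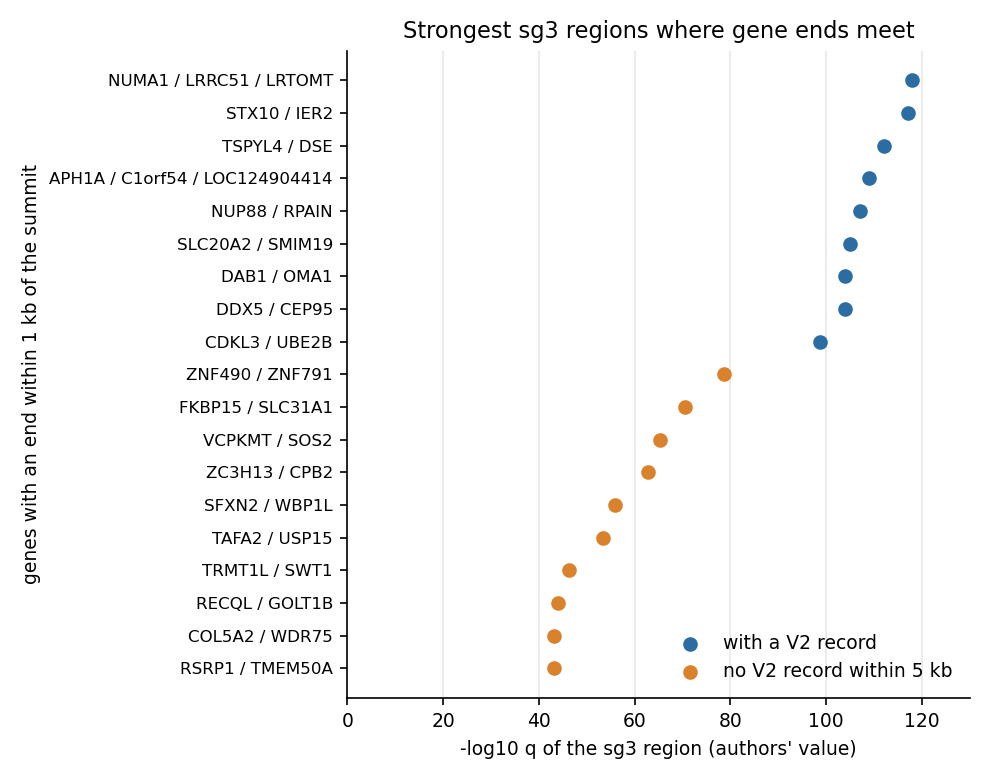
The -log10 q of 9 of the 10 strongest sg3 regions with a V2 record and of the 10 strongest with no V2 record within 5 kb (horizontal axis, the authors' value), each named by the genes with an end within 1 kb of the summit. The former lie between 98.7 and 118 and the latter between 43.1 and 78.7.

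No V2 record lay even within 5 kb of 599 of the 1678 regions, which is 35.7% (95% CI 33.4 to 38.0%), beside a background of 19.1%. At 1 gene end this share was 29.8% (28.8 to 30.7%). The strongest of the 599 was the region of the zinc finger genes ZNF490 and ZNF791 (-log10 q 78.7, fold enrichment 11.5). At FKBP15 and SLC31A1, the copper importer gene, the -log10 q was 70.6 and the region ran 1061 bases from 113221577 to 113222637 on chromosome 9, inside SLC31A1. A weaker sg3 region, with a fold enrichment of 7.57, lay across the gap inside FKBP15, also without a V2 record.

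Of these 10 regions, 3 lay where a start meets the 3' end of a neighbour, and in each of them the summit was inside the gene that starts there. These were VCPKMT, a methyltransferase gene, beside SOS2, a RAS exchange factor gene (-log10 q 65.3), ZC3H13, a gene of the m6A writer complex, beside CPB2 (62.7), and WBP1L beside SFXN2 (55.8). The summit was 222 bases past the start of VCPKMT and 780 bases from the 3' end of SOS2, 270 bases past the start of ZC3H13, and 268 bases past that of WBP1L. The remaining regions lay at TAFA2 and USP15, a deubiquitinase gene (53.3), TRMT1L and SWT1 (46.3), RECQL, a DNA helicase gene, and GOLT1B (44.0), COL5A2 and WDR75 (43.2), and RSRP1 and TMEM50A (43.1).

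Windows where starts meet held an sg3 record more often than windows at lone starts. To count this from the gene table, whatever the lists held, 2 gene ends within 2 kb of each other and with no further gene end within that distance were taken as a pair, and records of any width were counted within 1 kb of the midpoint. Of 1179 start-to-start pairs, 72.1% (95% CI 69.4 to 74.6%) had an sg3 record, beside 40.8% (39.9 to 41.7%) of 11953 lone starts. A start-to-start window holds 2 starts and a lone one 1, and the part of this in the difference was not tested. Of 765 pairs of a start and a 3' end, 41.8% (38.3 to 45.4%) had one, a difference from lone starts of 1.05 points (Newcombe 95% interval -2.50 to 4.69). Of 907 pairs of 3' ends 7.94% (6.26 to 9.89%) had one, beside 5.34% (4.95 to 5.75%) of 12335 lone 3' ends.

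By the width of the gap, 71.6% of divergent pairs up to 100 bases apart had an sg3 record, 75.7% of those from 100 to 250, 78.8% (71.8 to 84.8%) from 250 to 500, 69.8% from 500 to 1000 and 63.0% (47.5 to 76.8%) from 1000 to 2000 bases.

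The V2 list had a record at 41.4% (95% CI 38.6 to 44.3%) of start-to-start windows, at 23.3% (20.3 to 26.4%) of pairs of a start and a 3' end and at 24.6% (23.9 to 25.4%) of lone starts. Windows with an sg3 record and no V2 record made up 31.0% of start-to-start pairs, 16.6% of lone starts and 10.1% of all 34946 windows. Windows with a V2 record alone made up 0.332% of all windows. Counted this way, among windows that had an sg3 record, 42.9% (95% CI 39.6 to 46.3%) of start-to-start pairs and 40.7% (39.4 to 42.1%) of lone starts lacked a V2 record, a difference of 2.19 points (Newcombe 95% interval -1.37 to 5.82).

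**Figure D3:**
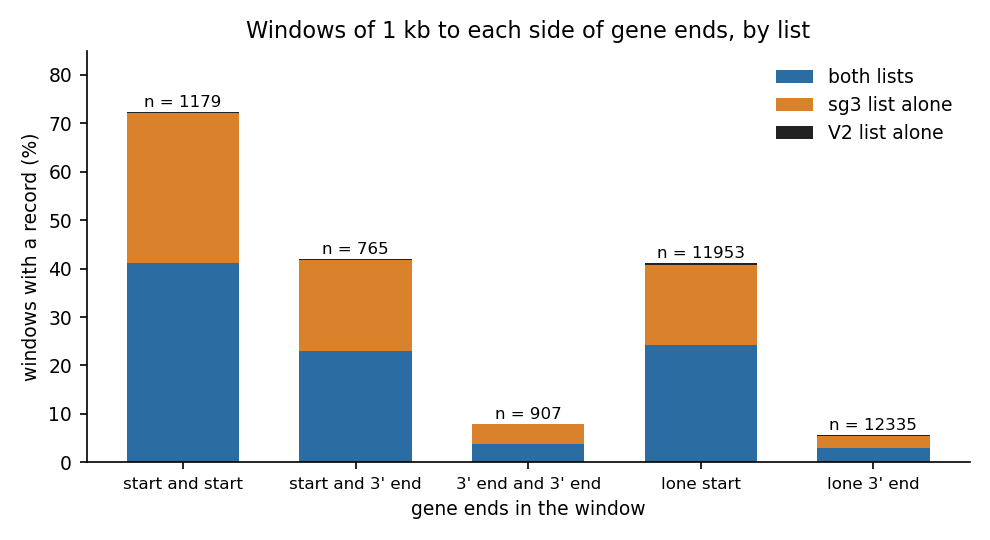
Share of windows with a record (vertical axis, %) in both lists, in the sg3 list alone or in the V2 list alone, for isolated pairs of gene ends and lone gene ends (horizontal axis), with the number of windows above each bar. An sg3 record was found at 72.1% of start-to-start pairs, beside 40.8% of lone starts.

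Among the 1678 regions, start-to-start pairs were the largest class. The strand of each gene was taken from the RefSeq promoter table, which held 15812 of 19974 protein-coding genes, and 386 regions, 367 of them near 2 genes, included a gene without an entry. Of the others near 2 genes, 981 lay between or beside starts, 213 at a start and a 3' end, and 39 at 3' ends. Among the 981, 59 lay at starts on the same strand, with a median gap of 0 bases, so gene records there can share a start. Of all 1678 regions, 65 included a readthrough gene and 89 a LOC gene model. The shares without a V2 record were 52.5% (95% CI 49.3 to 55.7%), 59.2% (52.2 to 65.8%) and 64.1% (47.2 to 78.8%), and 54.4% (49.3 to 59.5%) where a strand was unknown. The median -log10 q was 22, 16.8 and 10.5 in the 3 classes with known strand, so strength moved with this order, and its part in the order was not tested.

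At divergent pairs the summits lay inside the genes and not in the gap between the starts. Of the 981 start-to-start regions, 695 lay at divergent pairs whose genes do not overlap, with a median gap of 172 bases between the starts (interquartile range 104 to 276). Of the 695 summits, 15 fell between the starts, 2.16% (95% CI 1.21 to 3.53%), while the gap made up on average 13.3% of the positions that the rule allows. The nearest start was a median of 301 bases away (256 to 361), and 505 summits, 72.7%, lay from 200 to 400 bases inside a gene. With a V2 record the median distance was 310 bases (266 to 376) and without one 294 bases (245 to 353).

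At lone starts the summit lay inside the gene in 72.6% (95% CI 71.5 to 73.7%) of 6057 regions and upstream in the rest, a median of 351 bases away. Where the starts of opposite genes overlapped, 120 of 227 summits lay between the starts, 52.9% (46.1 to 59.5%), in the stretch that both genes share. That stretch was longer, with a median of 419 bases beside 172 bases between the starts of divergent pairs. Its share of the positions that the rule allows was not computed. The share without a V2 record was 45.4% (38.8 to 52.1%) at overlapping starts and 55.8% (52.0 to 59.6%) at divergent pairs. Their median -log10 q values were 21.8 and 22, and their median widths 643 and 571 bases.

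**Figure D4:**
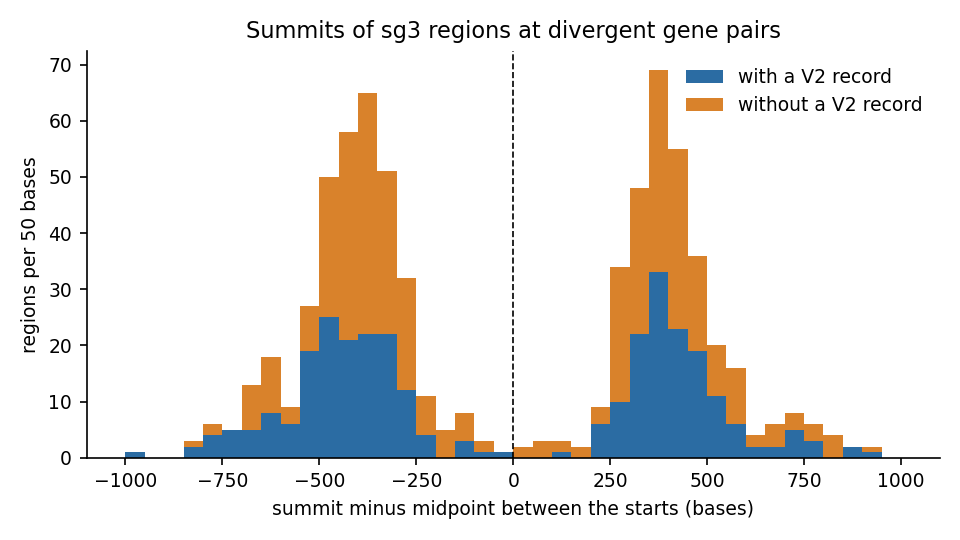
Number of sg3 regions at divergent pairs (vertical axis, per 50 bases) by the distance of the summit from the midpoint between the starts (horizontal axis, bases, positive toward the gene at higher coordinates), stacked by overlap with a V2 record. Summits form a peak on each side, and 15 of 695 lie between the starts.

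Some divergent pairs carried a region in each gene. Of 530 divergent pairs with such an sg3 region, 161 had summits on both sides of the gap, 30.4% (95% CI 26.5 to 34.5%), and 357 had them on 1 side. A region that covers both starts counts on 1 side at most, by its summit, and 80 of the 695 regions at divergent pairs did so. In the V2 list 42 of 286 pairs had both sides, 14.7% (10.8 to 19.3%). That list is shorter, with 40332 records beside 56875, and the part of this was not tested. Of the 161 pairs with both sides in the sg3 list, 31 had V2 records at both regions, 79 at 1 and 51 at neither. In 70 of the 79, 88.6% (79.5 to 94.7%), the V2 record lay at the side with the higher sg3 -log10 q.

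Pairs of each kind were picked after their values were seen. With V2 records on both sides, NME7 and BLZF1 had the highest -log10 q on their weaker side, with fold enrichments of 16.7 in NME7 and 16.0 in BLZF1 in the sg3 list. At RHOA, a small GTPase gene of the actin cytoskeleton, and TCTA the values were 7.83 and 8.75. With a V2 record on 1 side, DESI1 and XRCC6, which encodes the Ku70 DNA end-binding protein, had 6.44 and 8.36, and the V2 record lay at DESI1. At GART, a purine synthesis gene, and SON, a splicing gene, they were 12.6 and 7.33, and the V2 record lay at GART. With no V2 record, RABL3 and GTF2E1, a general transcription factor gene, had 9.1 and 8.03, and CDC26, a subunit of the anaphase-promoting complex, and PRPF4, a spliceosome gene, had 6.72 and 7.14.

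Where a region had a partner, the summits of the lists lay close together. Over the 772 regions with a V2 record they were a median of 32 bases apart (interquartile range 12 to 72), and 82.1% (95% CI 79.2 to 84.8%) were within 100 bases. At 1 gene end this was 78.2% (77.0 to 79.5%), and at no gene end 70.0% (69.4 to 70.6%). The sg3 region was the wider one in 724 of the 772, with medians of 802 bases in sg3 and 514 bases in V2.

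The 17 divergent or abutting pairs known from textbooks were looked up by name, and 8 lay at such a region. HSPD1 and HSPE1, the mitochondrial chaperonin genes, had a region over their starts (sg3 fold enrichment 6.6) with a V2 record and a weaker one inside HSPD1 (3.59) without. The region of NPAT and ATM, the DNA damage kinase gene, had an sg3 value of 10.8 and a V2 value of 5.29, and that of TMEM258 and FEN1, the flap endonuclease gene, 8.70 and 4.15. GART with SON and SIRT3 with PSMD13 also had V2 records, the latter with an sg3 fold enrichment of 8.12 and a V2 value of 4.56.

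The other 3 of the 8 had no overlapping V2 record, and 2 of them are described here. TAP1 and PSMB9, genes of antigen processing, had a region inside TAP1 with a fold enrichment of 8.20. OSGEP and APEX1, a base excision repair gene, had one on each side (9.67 and 8.79). For COL4A1 with COL4A2, COL4A3 with COL4A4 and COL4A5 with COL4A6, the collagen IV pairs, and for SURF1 with SURF2, no sg3 summit lay within 1 kb of an end of either gene. PPAT with PAICS, TBP with PSMB1 and PRKDC with MCM4 had sg3 summits near an end of either gene and none near ends of both.

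The genes at these regions were counted over all genes and in 15 gene lists. Most lists were made by symbol pattern, so that RPL7L1, PSME3IP1 and ZNF593OS, for example, entered by symbol and not by function. A gene counted whichever of its ends lay near the summit. Of all 19974 protein-coding genes, 2674 had such a region, 13.4%. Among these, 1281 genes, 47.9% (95% CI 46.0 to 49.8%), had none with a V2 record. Counted by pair or group, 668 of 1362 had none, 49.0% (46.4 to 51.7%), beside 42.9% (41.7 to 44.2%) of the 6503 genes at regions with 1 gene end. Whether a gene can have such a region depends on its neighbours: 6822 genes had an end within 2 kb of another gene's end, and 2501 of these paired genes were at such a region, 36.7% (35.5 to 37.8%). The counts below use lists chosen with earlier results of these data known, describe those lists only, and count genes of a pair separately although they share a region. Genes with near-identical copies, such as histone, TIMM23B, CHEK2, PMS2 and ribosomal protein genes, are uncertain, because no source used here says how reads that align to several places were handled.

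Of the clustered histone genes, 35 of 74 were at such a region (47.3%), 20 of them without a V2 record. Among those that are paired, 27 of 43 were, 62.8% (95% CI 46.7 to 77.0%), beside the 36.7% over all paired genes. Many of these genes lie in divergent pairs of an H2A and an H2B gene, whose proteins form a dimer in the nucleosome. The pair H2BC21 and H2AC20 had a region of 1007 bases without an overlapping V2 record (fold enrichment 7.15), and H2BC11 and H2AC11 had one of 441 bases (8.46). The latter counted as a start with a 3' end, since its summit lay nearer the 3' end of the short gene H2BC11 than its start. Each had a V2 record within 5 kb.

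Of the respiratory chain list 29 of 94 genes (30.9%) were at such a region, 17 without a V2 record, among them the complex I genes NDUFA8 beside MORN5 (fold enrichment 6.71), NDUFA2 beside IK and TMCO6 (5.96), NDUFB1 beside CPSF2 (7.35) and NDUFA9 beside AKAP3 (10.3). Among the paired genes of that list 27 of 48 were, 56.2% (95% CI 41.2 to 70.5%). Of the mitochondrial ribosomal protein genes 20 of 77 (26.0%) were, 12 without, among them MRPS18C beside HELQ (13.1), MRPL32 beside PSMA2 (8.95), MRPS2 beside PIERCE1 (4.89) and MRPL50 beside ZNF189 (6.76). Among the paired ones 19 of 50 were, 38.0% (24.7 to 52.8%), near the share over all paired genes. Of the mitochondrial import genes 7 of 25 were, 4 without, namely TIMM23B beside PARG (5.92), TIMM9 beside KIAA0586 (5.65), TIMM17B beside PQBP1 (7.29) and TIMM8B beside SDHD (6.73), and among paired ones 6 of 14 were, 42.9% (17.7 to 71.1%).

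Cytosolic ribosomal protein genes counted 22 of 84 (26.2%), with 12 lacking a V2 record, and 20 of 37 among paired ones, 54.1% (95% CI 36.9 to 70.5%). RPL4 beside ZWILCH, a kinetochore gene, had a fold enrichment of 8.28, RPL17 beside its own readthrough model 6.75, RPS29 beside LRR1 4.84 and RPL7L1 beside PEX39 4.67. The region of RPL7L1 lay near its 3' end, and the start there was that of PEX39. Aminoacyl-tRNA synthetase genes, which charge tRNAs, counted 10 of 34, with 6 lacking a V2 record, among them KARS1 beside TERF2IP (6.22), SARS2 beside MRPS12 (5.43) and WARS1 beside WDR25 (4.94). Among paired genes the synthetases counted 10 of 19, 52.6% (28.9 to 75.6%), the proteasome genes 11 of 25, 44.0% (24.4 to 65.1%), and the chaperonins 4 of 7, 57.1% (18.4 to 90.1%), and each interval included 36.7%. Proteasome genes counted 11 of 50, with 7 lacking a V2 record, among them PSMA2 beside MRPL32 (8.95), PSMD9 beside HPD (5.69), PSMB9 beside TAP1 (8.20) and PSMC6 beside STYX (5.73). The region of PSMC6 lay near its 3' end, and the start there was that of STYX. The chaperonin list counted 6 of 11, and CCT6B beside ZNF830 (4.67) was the 1 without a V2 record, whereas CCT6A beside PSPH had an sg3 fold enrichment of 5.02 and a V2 value of 3.24.

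Of the DNA repair genes 18 of 59 (30.5%) were at such a region and 10 had no V2 record, among them CHEK2, a checkpoint kinase gene, beside HSCB (fold enrichment 6.01), APEX1 (9.67) and ERCC8, a transcription-coupled repair gene, beside NDUFAF2 (5.76). Of the DNA replication genes 10 of 45 were, 4 without, namely CDC45, a helicase cofactor gene, beside UFD1 (6.38), RPA1 beside SMYD4 (4.13), PRIM2, a primase subunit gene, beside RAB23 (3.34) and ORC4 beside MBD5 (4.80). Of the cell cycle and mitosis genes 11 of 44 were, 6 without, among them SMC4, a condensin gene, beside IFT80 (7.16), the mitotic kinase gene AURKA beside CSTF1 (5.02), the phosphatase gene CDC25C beside FAM53C (4.72) and E2F3 beside a gene model (4.34). Of the RNA polymerase and Mediator genes 12 of 63 were, 6 without, among them MED19 beside TMX2 (9.41), POLR1C beside YIPF3 (6.41), POLR3C beside RNF115 (5.16) and POLR2I beside OVOL3 and TBCB (4.74). Among paired genes the share was 47.4% (95% CI 31.0 to 64.2%) for DNA repair, 45.5% (24.4 to 67.8%) for DNA replication and 30.0% (14.7 to 49.4%) for RNA polymerases and Mediator, and these intervals included the 36.7% over all paired genes. For cell cycle and mitosis it was 64.7% (38.3 to 85.8%, 11 of 17 genes).

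Sirtuins, deacetylases and acyltransferases, the enzymes that remove or add acyl groups on lysine, counted 10 of 22 genes, with 5 lacking a V2 record, and 10 of 13 among paired ones, 76.9% (95% CI 46.2 to 95%). SIRT7 beside MAFG had a fold enrichment of 5.17, SIRT6 beside ANKRD24 4.34, KAT8 beside BCKDK 4.26 and HDAC3 beside RELL2 2.89, and the fifth was KAT5 beside RNASEH2C (3.13). SIRT2 beside NFKBIB, SIRT3 beside PSMD13 and SIRT5 beside NOL7 had V2 records, with sg3 values of 6.12, 8.12 and 4.99. So did AARS1 beside DDX19B (5.88) and KAT7 beside FAM117A (5.25), and AARS1 is also counted among the aminoacyl-tRNA synthetases. The regions of SIRT5 and KAT5 lay near the 3' ends of these genes, and the starts there were those of NOL7 and RNASEH2C.

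The zinc finger genes counted 41 of 512 (8.01%, 95% CI 5.81 to 10.7%), and 37 of 130 among paired ones, 28.5% (20.9 to 37.0%), an interval that included 36.7%. The lactate and glycolysis genes counted 2 of 24 (8.33%, 1.03 to 27.0%), an interval that included the 13.4% over all genes. Of the zinc finger genes 19 had no V2 record, among them ZNF490 and ZNF791, ZNF75A beside TIGD7 (fold enrichment 6.26) and ZNF346 beside UIMC1 (4.23). The 2 glycolysis genes encode phosphofructokinases, PFKM beside SENP1 without a V2 record (5.68) and PFKP beside a gene model with one (3.00). In each of the 15 lists the exact interval of the share without a V2 record included the 47.9% over all genes at such regions.

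Promoter sequences at start-to-start regions were CpG-rich and seldom held a TATA box. For 1427 genes a RefSeq promoter of 300 bases, from 250 before to 50 after the start, lay at such a region. Their median CpG content, observed over expected, was 0.874 (interquartile range 0.761 to 0.970), beside 0.763 over all 15812 promoters and 0.864 at regions with a lone start. The letters TATAAA were found in 3.01% (95% CI 2.19 to 4.04%) of these promoters, 6.15% (5.48 to 6.87%) of promoters at lone starts and 9.64% (9.18 to 10.1%) of all. The ETS motif CCGGAAG was found in 28.9% (26.6 to 31.4%), 20.1% (19.0 to 21.3%) and 14.2% (13.7 to 14.7%).

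Promoters of a divergent pair can share bases. With 1 promoter per pair (772 promoters) the ETS share was 29.1% (95% CI 26.0 to 32.5%) and the TATA share 2.59% (1.59 to 3.97%). Among 275 divergent pairs whose whole gap could be read, the gap held an ETS match in 74, a CCAAT match in 79 and a GGGCGG match in 159. Among the sequences printed above, the stretches of STX10 with IER2, RECQL with GOLT1B and SIRT3 with PSMD13 hold an ETS match, and that of RSRP1 with TMEM50A holds a match to the NRF1 motif.

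The other motifs were counted in the same way. At start-to-start regions, lone starts and all promoters, the NRF1 motif GCGCATGCG was found in 5.40%, 3.95% and 2.76%, the YY1 motif AAGATGGCG in 5.89%, 4.56% and 2.74%, and the ZNF143 letters ACTACAA in 5.61%, 3.06% and 3.15%. The SP1 letters GGGCGG were found in 71.6%, 74.1% and 58.5%, the NFY letters CCAAT in 39.7%, 35.8% and 36.3%, the E-box CACGTG in 10.9%, 10.6% and 8.87%, the CRE motif TGACGTCA in 4.06%, 4.37% and 2.59%, and the ZBTB33 letters CTCGCGAG in 3.15%, 2.53% and 1.53%. A match on either strand counts, matches to different motifs may overlap, and a match is a description of letters only.

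Promoters were also compared with and without a V2 record. The start-to-start regions of these groups differed in strength and width, with a median -log10 q of 34.1 with and 15.3 without. Their median widths were 750 and 488 bases. Motif shares were not compared at equal strength or width, and the part of either was not tested. The intervals are not adjusted for the number of motifs compared. At start-to-start regions the median GC content was 66.0% with and 64.7% without a V2 record, and the ETS share was 29.8% (95% CI 26.6 to 33.2%) and 28.0% (24.6 to 31.5%). The CRE motif was found in 5.41% (3.91 to 7.27%) with and 2.54% (1.49 to 4.04%) without, and the ZNF143 letters in 3.96% (2.69 to 5.60%) and 7.47% (5.60 to 9.73%). At lone starts the CRE shares were 5.44% (4.61 to 6.37%) and 2.97% (2.28 to 3.8%), and the ZNF143 shares 2.61% (2.04 to 3.28%) and 3.66% (2.89 to 4.56%). With minus without a V2 record, the CRE difference was 2.87 points (Newcombe 95% interval 0.825 to 4.94) at start-to-start regions and 2.47 points (1.32 to 3.6) at lone starts. For ZNF143 it was -3.52 points (-6.05 to -1.11) and -1.05 points (-2.10 to -0.0543). For the other 8 motifs the interval at start-to-start regions included 0. At lone starts it also excluded 0 for SP1, with 4.99 points (2.46 to 7.53), and for NFY, with -4.71 points (-7.48 to -1.95). At start-to-start regions these differences were 3.41 points (-1.27 to 8.11) and -2.58 points (-7.66 to 2.5). Both promoters of a pair were counted here, although they can share bases. In the gaps of divergent pairs that could be read whole, each pair counted once, by its strongest region. There a CCAAT match was found in 27 of 127 gaps with a V2 record and in 52 of 148 without. For ETS these counts were 33 and 41, for GGGCGG 76 and 83, for CRE 7 and 4 and for ZNF143 4 and 9. No interval was computed for the gaps.

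**Figure D5:**
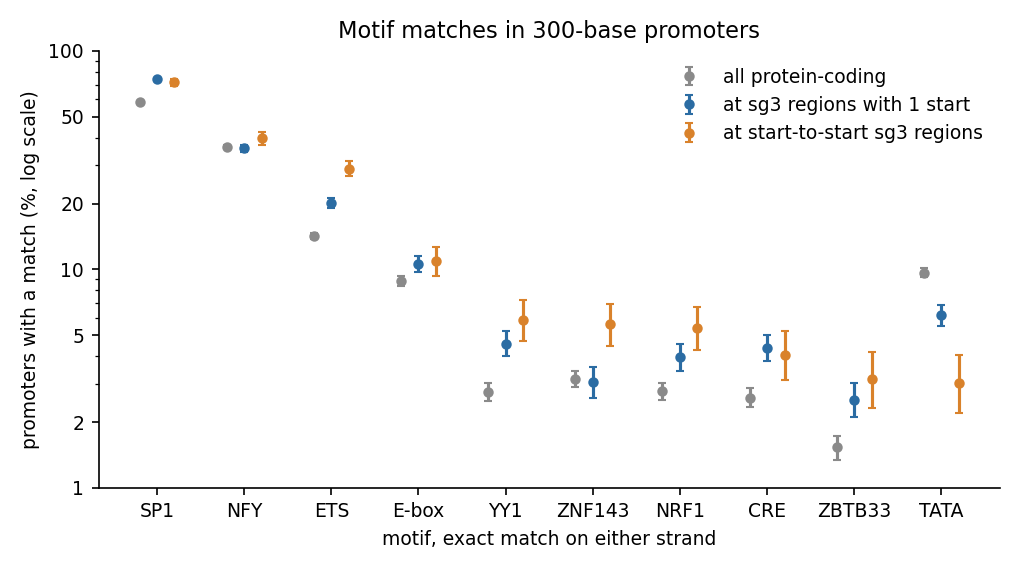
Share of RefSeq promoters of 300 bases with an exact match to each motif on either strand (vertical axis, %, log scale), for all protein-coding promoters, those at sg3 regions with 1 start and those at start-to-start sg3 regions; bars are exact 95% intervals. ETS rises from 14.2% to 20.1% and 28.9%, and TATA falls from 9.64% to 6.15% and 3.01%.

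By chromosome, chromosome 17 held 8.10% of them and 5.85% of protein-coding genes, chromosome 1 held 10.9% and 10.3%, and chromosome X 2.15% and 4.25%. The share without a V2 record ran from 37.0% (95% CI 24.3 to 51.3%, n = 54) on chromosome 10 to 72.3% (59.8 to 82.7%, n = 65) on chromosome 14. The labelled cell type was checked on regions of any width. In the sg3 list 9 of 10 squamous epithelial marker genes had a summit within 1 kb of an end, the exception being DSG3, and in the V2 list 6 did, without TP63, KRT5, DSG3 and DSP. Of 15 liver, blood and neuron markers, 1 blood marker had an sg3 summit there, and 0 had a V2 summit.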

How the data were processed

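The series holds H3K9la ChIP-seq in KYSE30 with 1 peak list per arm, and the labels do not say on which library the V2 list was called. The submitters' processing notes name MACS2 2.2.9.1, Bowtie2 2.5.1, SAMtools 1.18, Trim Galore 0.6.10, FastQC 0.12.1 and build hg38. No source used here gives the read depth, the command line or the control library. The authors deposited for each record a fold enrichment (a ratio), a -log10 p and a -log10 q. The whole-number score that the authors deposited was not used, and the deposited summit offset gave the summit position.

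Gene ends came from a RefSeq table of GRCh38.p14, the build of the lists. Strand and sequences came from the RefSeq promoter table. Lists shared a region when records overlapped by at least 1 base. With 1 library per arm there is no test and no p-value. Shares carry exact Clopper-Pearson 95% intervals, computed in scipy 1.17.1 under Python 3.11.15, differences carry Newcombe intervals, and overlap and gene-end rules were tested on simulated data. Named by rule, on sg3 -log10 q, were the 10 strongest regions with a V2 record, the 10 strongest with none within 5 kb, the 5 strongest V2 regions without an sg3 record, SIRT3, 17 known pairs, up to 4 genes per list (first those without a V2 record) and the regions at the limits; a few of these are not reported here. The members, lists and rules were chosen with earlier results of these data known. Alternatives changed thresholds, overlap, list length, window, placement, gene table, width and unit.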

Additional observations from a re-analysis of the deposited data

How the results depend on the processing

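Of 13 alternatives, 11 were planned and 2 (LOC gene models left out, 1 region per gene or gene group) were chosen after seeing the data. Regions where gene ends meet lacked a V2 record more often than regions at 1 gene end under all 13, by 3.78 to 6.84 percentage points. None of the 13 matched regions by width or counted windows of the gene table. In the window count given above, start-to-start pairs and lone starts differed by 2.19 points (-1.37 to 5.82). Within width classes the interval excluded 0 only from 500 to 1000 bases. The shares without a V2 record, at 2 gene ends, at 1 gene end and start to start, were 61.1%, 57.3% and 61.6% at a fold enrichment of at least 4, and 63.2%, 57.5% and 62.1% where 50% of the region had to overlap. They were 40.8%, 36.3% and 39.9% when a V2 record within 1 kb counted, 48.4%, 41.6% and 48.1% in lists of equal length, and 50.2%, 44.6% and 48.2% with 1 region per gene or gene group. At a -log10 q of at least 10, the shares at 1 gene end and start to start were 50.7% and 56.1%. A window of 500 bases left 760 regions and gave 50.1% at 1 gene end, and one of 2.5 kb gave 3029 regions. The share of V2 regions without an sg3 record became 4.22% at the fold threshold, 0.468% with records within 1 kb, 3.51% in lists of equal length and 3.49% with the window of 2.5 kb.

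No paired analysis was possible because each arm has 1 list and the labels give no replicate numbers. Read depth is not known, and its part in the absent V2 records was not tested.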
